A study of Mus musculus with 6 samples.

Results

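Paraspeckle RNAs and partner proteins are described here across the cell classes of the adult mouse testis, in 9 listed genes of the 25771 genes measured: Neat1, Malat1, Ewsr1, Taf15, Rbm14, Hnrnpk, Tardbp, Matr3 and Smarca4. They were chosen by name, from their known ties to the paraspeckle and to nuclear RNA, and not from their values, though earlier results of these data were known. Testes of adult C57BL6 mice were dissociated with enzymes and read by droplet-based 3′ single-cell RNA sequencing, in which each captured transcript carries a unique molecular identifier (UMI). The mutant genotype, NONO deltaER, is represented by libraries TD, TE and TF, and its comparison genotype, NONO, by libraries TA, TB and TC. What deltaER removes or changes in NONO, and how many animals stand behind a library, is stated in none of the sources at hand. The cell table deposited with the counts names the groups KI and WT, which were read as NONO deltaER and NONO; were that reading wrong, every genotype direction below would turn.

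A paraspeckle is a nuclear body that forms around the long non-coding RNA Neat1. NONO and its relatives bind Neat1 and hold the body together, and further RNA-binding proteins, among them the FET proteins EWSR1 and TAF15, RBM14, HNRNPK and TDP-43, are found in it or shape it. Malat1, the neighbour of Neat1 in the genome, marks nuclear speckles, the splicing-factor bodies that lie beside paraspeckles, and SMARCA4 (BRG1), the ATPase of the SWI/SNF chromatin remodeler, binds Neat1 and is needed for paraspeckle assembly in cultured human cells. Male germ cells shut down transcription late in spermiogenesis, when histones give way to protamines.

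In GENCODE M21 on mm10, Neat1 lies at chr19:5824708-5845478 and Malat1 at chr19:5795690-5802672, both on the minus strand and 22035 bases apart, and both are annotated as lincRNA genes. Ewsr1 lies at chr11:5069689-5099266 (minus), Taf15 at chr11:83473086-83506743 (plus), Rbm14 at chr19:4800569-4811634 (minus), Hnrnpk at chr13:58391142-58403343 (minus), Tardbp at chr4:148612382-148627019 (minus) and Smarca4 at chr9:21616169-21704230 (plus). The promoter windows of 4 members are shown, since their courses are contrasted below, from 250 bases before to 50 bases after the start of the gene in RefSeq (GRCm38.p6), on the strand of the gene. They lie at chr19:5802623-5802922 (minus), chr11:5099047-5099346 (minus), chr9:21615919-21616218 (plus) and chr19:4811585-4811884 (minus). Capitals mark a match to GCGCANGCG, the core of the site of the factor NRF1, on either strand.
Malat1: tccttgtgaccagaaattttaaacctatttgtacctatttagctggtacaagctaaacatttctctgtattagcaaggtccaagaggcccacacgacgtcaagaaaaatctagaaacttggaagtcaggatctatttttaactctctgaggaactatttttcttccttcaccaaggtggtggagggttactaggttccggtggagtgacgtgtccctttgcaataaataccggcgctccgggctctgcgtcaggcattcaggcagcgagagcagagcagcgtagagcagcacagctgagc
Ewsr1: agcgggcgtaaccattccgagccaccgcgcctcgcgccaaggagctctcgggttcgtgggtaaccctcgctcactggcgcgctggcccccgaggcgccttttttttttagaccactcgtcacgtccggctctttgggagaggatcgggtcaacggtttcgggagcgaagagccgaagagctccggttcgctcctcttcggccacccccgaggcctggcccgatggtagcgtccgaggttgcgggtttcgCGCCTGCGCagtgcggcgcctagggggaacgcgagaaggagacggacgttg
Smarca4: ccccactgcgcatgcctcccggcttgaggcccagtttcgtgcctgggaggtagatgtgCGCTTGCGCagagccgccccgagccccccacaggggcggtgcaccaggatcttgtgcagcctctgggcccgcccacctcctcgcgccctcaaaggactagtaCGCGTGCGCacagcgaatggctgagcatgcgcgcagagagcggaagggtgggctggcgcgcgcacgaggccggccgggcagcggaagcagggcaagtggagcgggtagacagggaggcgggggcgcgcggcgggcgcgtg
Rbm14: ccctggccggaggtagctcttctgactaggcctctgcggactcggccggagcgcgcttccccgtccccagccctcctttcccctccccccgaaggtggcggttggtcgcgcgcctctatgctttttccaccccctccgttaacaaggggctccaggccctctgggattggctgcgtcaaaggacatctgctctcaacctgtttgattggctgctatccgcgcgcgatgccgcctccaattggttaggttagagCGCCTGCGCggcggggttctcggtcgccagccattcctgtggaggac
RefSeq windows were at hand for 7 of the 9 members. Ewsr1 and Rbm14 held 1 match each and Smarca4 held 2, while Malat1, Taf15, Hnrnpk and Tardbp held 0; 6.25% of 32851 promoter windows of this length hold a match. GGGCGG (the GC box, either strand) was found in Taf15 (2 matches), Tardbp (3) and Smarca4 (3), against 35.7% of all windows, and CCAAT in Taf15 (2), Rbm14 (4) and Hnrnpk (2), against 37.4%. No member held TGACGTCA, CAGTTG or TATAAA. The G+C share was 47.0% in the Malat1 window and 62.0% to 72.3% in the other 6.

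The matrix held 46495 cells in 17 deposited classes, 12 of germ cells and 5 of somatic cells, with 81042216 to 110018960 UMI and 6261 to 8909 cells per library. Levels are given in CPM, the UMI of a gene summed over a class and library and scaled to a common total for that class and library, so each is a share of the class's UMI. Of 45836 distinct barcode sequences, 650 occurred in more than 1 library. The class named differentiated spermatogonia had Stra8, Prdm9 and Dmc1 highest. That named round spermatids of steps 1-2 had Ccna1 and Aurka, markers of late spermatocytes, highest, with the summed round spermatid markers at 24.6 CPM against 608.5 CPM in step 3. Of the other late spermatocyte markers, Hspa2 and Piwil1 were highest in leptotene to early pachytene spermatocytes and Pgk2 in elongated spermatids. The sum of that list was 4713 CPM in the class named steps 1-2 and 4979 CPM in leptotene to early pachytene spermatocytes. The class named preleptotene spermatocytes had Sycp1, Meiob and Hormad1, genes of meiotic prophase, highest, with the summed markers of differentiating spermatogonia, Stra8 among them, at 88.9 CPM. That sum does not follow 1 stage. It was 1165 CPM in the class named steps 1-2, where Dmrtb1 was highest, and 1113 CPM in the class named differentiated spermatogonia. Of the same list, Kit was highest in Leydig cells and Sohlh1 in undifferentiated spermatogonia. The classes named differentiated spermatogonia, preleptotene spermatocytes and round spermatids of steps 1-2 are therefore called by the name they were given, whatever stage their cells hold. The class named Unknown had Dcn and Pdgfra highest, and the endothelial markers were highest among the cells named myoid. The libraries also differ in the mean mitochondrial percent per cell, which was 0.4625% to 0.507% in TA, TB and TF and 0.226% to 0.342% in TC, TD and TE, so each such set holds both genotypes. Whether each library is a separate animal is not stated; p-values therefore rest on library-to-library spread, which may be technical.

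Malat1 had the largest count of the members, 544979 UMI, and a course through spermatogenesis with a low point between 2 high ones. Its mean level over the 6 libraries was 1748 ± 190 CPM in undifferentiated spermatogonia, 2072 ± 160 in the class named differentiated spermatogonia, 2712 ± 318 in preleptotene spermatocytes and 1646 ± 95.5 in leptotene to early pachytene spermatocytes (SD, n = 6 here and below where no genotype is named). It was then 439.7 ± 22.7 CPM in late pachytene and early diplotene spermatocytes and 168.6 ± 12.8 in the class named steps 1-2. Step 3 had 459.6 ± 57.4 CPM, steps 4-5 had 1209 ± 167 and steps 5-6 had 1059 ± 207, before 38.9 ± 4.35 in steps 6-7, 9.76 ± 4.12 in steps 7-8 and 17.2 ± 2.44 in elongated spermatids. Steps 4-5 were below leptotene to early pachytene spermatocytes in all 6 libraries and above every library of the 3 classes before them.

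**Figure D1:**
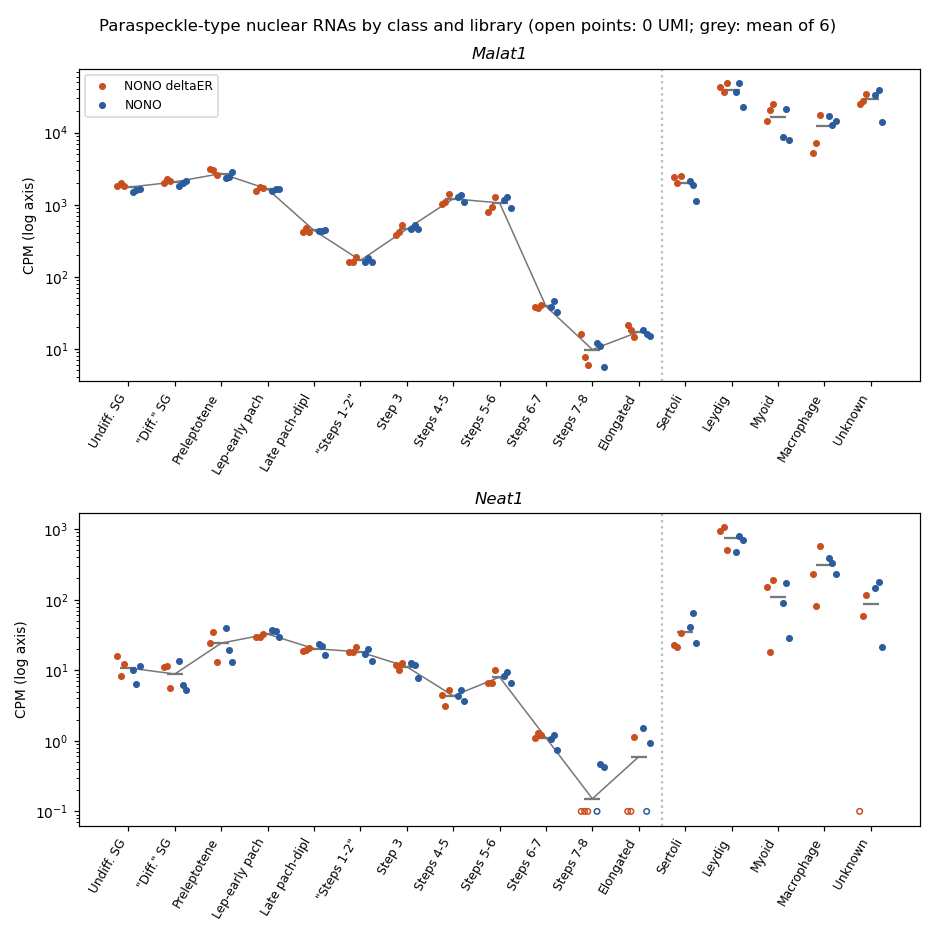
CPM of Malat1 and Neat1 (log axis) in 12 germ cell classes and 5 somatic classes. Each point is 1 library, NONO deltaER left of NONO, the grey dash and line give the mean of 6 libraries and open points mark 0 UMI; Malat1 has a low point of 168.6 CPM in the class named steps 1-2 before 1209 CPM in steps 4-5, while Neat1 has 18.2 and 4.34 CPM there.

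By library, the class named steps 1-2 had 160.3, 159.2 and 188.1 CPM of Malat1 in NONO deltaER and 161.5, 181.7 and 160.7 in NONO. Steps 4-5 had 1020.2, 1088 and 1416 CPM in NONO deltaER and 1297, 1358 and 1078 in NONO. The libraries of steps 4-5 did not overlap with those of the class named steps 1-2. Between these classes Malat1 was higher in 6 of 6 libraries on every scale tried, by 7.13-fold in CPM, by 6.98-fold in UMI per cell and by 10.2-fold in CPM scaled by TMM factors over all classes. Such factors assume that most genes do not differ in level between the classes, which was not tested. Of the 13418 genes that reached 20 CPM in a class, 41.9% were higher in steps 4-5 than in the class named steps 1-2 and 12.3% moved up as far as Malat1 on the log2(CPM + 1) scale. The summed markers of Leydig cells, where Malat1 was most abundant, were 2.5 CPM in steps 4-5 and 3.9 CPM in the class named steps 1-2, against 6434 CPM in Leydig cells themselves. Those of macrophages, which are also rich in Malat1, were 9.09 CPM in steps 4-5 and 2.81 CPM in the class named steps 1-2, against 6553 CPM in macrophages, and those of endothelial cells 7.79 and 2.16 CPM. The part of such RNA in the Malat1 level was not tested.

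Cells with at least 1 UMI of Malat1 followed the same course at a matched depth. With each cell thinned to 1000 UMI, 15.2% ± 1.17 of cells of the class named steps 1-2 had a Malat1 UMI, 34.7% ± 3.31 of step 3, 67.6% ± 4.64 of steps 4-5 and 54.8% ± 7.82 of steps 5-6. Without thinning the shares were 84.9%, 91.5%, 99.8% and 85.5%. In elongated spermatids, where Malat1 was among its lowest levels, the thinned share was 1.95% ± 0.196 and the unthinned one 4.33%. Median depths were 15876 UMI per cell in the class named steps 1-2, 15103 in steps 4-5 and 2426 in elongated spermatids.

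How Malat1 in round spermatids compares with spermatogonia depended on the scale. Steps 4-5 had 1.45-fold less than undifferentiated spermatogonia in CPM in all 6 libraries. Per cell they had 2.865-fold more UMI, and with TMM factors over all classes 2.56-fold more, both also in 6 of 6 libraries. The TMM factors moved every gene by 1.89 on the log2 scale between these classes, and UMI per cell moved it by 2.05; a cell of steps 4-5 gave 17773 UMI on average and an undifferentiated spermatogonium 4412.

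**Figure D2:**
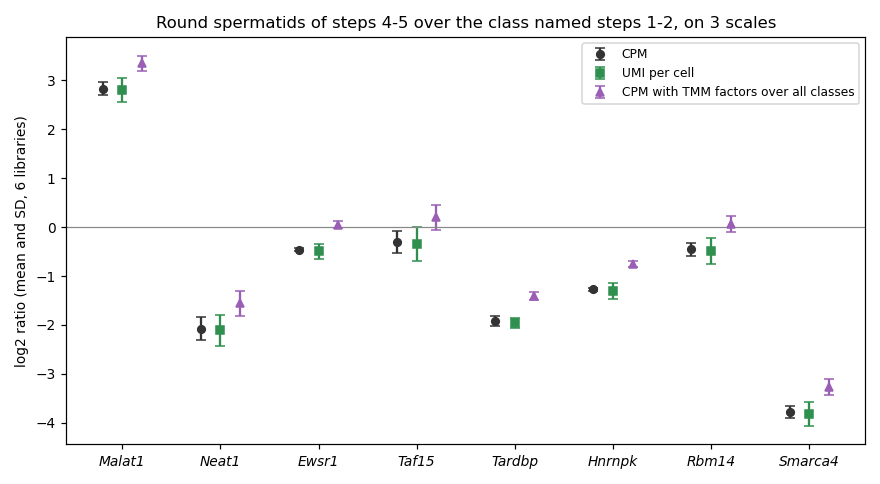
Log2 ratio of round spermatids of steps 4-5 over the class named round spermatids of steps 1-2 for 8 members, as mean and SD over 6 libraries, on 3 scales. Malat1 is above 0 at 2.83 (CPM), 2.80 (UMI per cell) and 3.35 (TMM factors), Neat1, Tardbp, Hnrnpk and Smarca4 are below 0 on all 3 scales, and Ewsr1, Taf15 and Rbm14 lie within 0.5 of 0 and are above it with TMM factors.

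Between neighbouring classes the largest upward step of Malat1 was into step 3, by 1.435 ± 0.11 on the log2(CPM + 1) scale, and that into steps 4-5 was 1.39 ± 0.08, both in 6 of 6 libraries and not apart by more than their spread. The order turned on the other scales, where the log2 ratio into steps 4-5 was 1.80 with TMM factors and 1.70 in UMI per cell, against 1.55 and 1.10 into step 3; in UMI per cell that into leptotene to early pachytene spermatocytes was larger still (2.65). The largest downward one lay between steps 5-6 and steps 6-7. Its mean log2(CPM + 1) difference was -4.72 ± 0.21 (SD over 6 libraries), a 26.3-fold lower level in all 6, and 0.507% of genes moved down as far. Steps 6-7 had 0.341 UMI of Malat1 per cell, against 16.9 in steps 5-6. The summed Prm1, Prm2 and Tnp2, which package sperm chromatin, moved the other way, with 99512 CPM in steps 6-7 and 25316 CPM in steps 5-6, and their part in the CPM of other genes was not tested; on the scale with TMM factors the log2 ratio of Malat1 was -3.45.

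In 4 of 5 somatic classes every library had more Malat1 than any library of any germ cell class. Leydig cells, which make testosterone, had 43170, 36307 and 49290 CPM in NONO deltaER and 36711, 49031 and 22856 in NONO. Peritubular myoid cells averaged 16403 ± 7050 CPM, macrophages 12439 ± 5151 and the class named Unknown 28994 ± 8940. Sertoli cells, the nurse cells of the tubule, had 1999 ± 492 CPM, overlapping with spermatogonia. Library TC was the lowest of the 6 in Leydig, myoid, Unknown and Sertoli cells, and the ranges of Leydig and Unknown, Unknown and myoid, and myoid and macrophage overlapped.

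Neat1, the scaffold RNA itself, was scarce in germ cells, and its course differed from that of Malat1. The 3′ tags used here favour polyadenylated ends, which the short Neat1 transcript has and the long, paraspeckle-building one lacks, so the counts cannot be split between the isoforms. Neat1 averaged 10.8 ± 3.29 CPM in undifferentiated spermatogonia, 8.86 ± 3.66 in the class named differentiated spermatogonia, 24.2 ± 11.2 in preleptotene and 32.6 ± 3.39 in leptotene to early pachytene spermatocytes. It was 20.3 ± 2.64 CPM in late pachytene and early diplotene spermatocytes, 18.2 ± 2.75 in the class named steps 1-2, 11.2 ± 1.93 in step 3 and 4.34 ± 0.855 in steps 4-5. From the class named steps 1-2 to steps 4-5 Neat1 was therefore lower on all 3 scales (log2 ratio -2.08, -2.11 and -1.56), while Malat1 was higher.

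Steps 5-6 had more Neat1 than steps 4-5 in 6 of 6 libraries. NONO deltaER libraries had 6.56, 6.71 and 10.2 CPM in steps 5-6 and 4.44, 3.11 and 5.30 in steps 4-5, and NONO libraries 8.26, 9.57 and 6.70 in steps 5-6 and 4.32, 5.20 and 3.65 in steps 4-5. The log2 ratio was 0.89 in CPM, 0.70 in UMI per cell and 1.34 with TMM factors, and 14.3% of genes moved up as far between these classes. The largest downward step of Neat1 followed, by -2.09 ± 0.24 on the log2(CPM + 1) scale into steps 6-7 in 6 of 6 libraries. Only 85 UMI of Neat1 were counted in steps 6-7 in all libraries, 2 in steps 7-8 and 4 in elongated spermatids.

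The largest step up of Neat1 between neighbouring germ cell classes was into preleptotene spermatocytes, by 1.32 ± 0.21 on the log2(CPM + 1) scale and in 6 of 6 libraries, but it rests on 15 UMI in the earlier class and 52 in the later. The step into leptotene to early pachytene spermatocytes was 0.53 ± 0.63 on that scale. In UMI per cell the order turned, since against CPM it moved the log2 ratio into preleptotene by -0.60 and the next by 3.36. Among somatic classes, Leydig cells had 940.1, 1067 and 503.0 CPM in NONO deltaER and 472.8, 790.1 and 698.2 in NONO, and macrophages averaged 307.4 ± 171 CPM. Sertoli cells, at 34.7 ± 16.7 CPM, overlapped with leptotene to early pachytene spermatocytes. At 1000 UMI per cell, 37.0% ± 6.37 of Leydig cells had a Neat1 UMI, against 3.53% ± 0.366 of leptotene to early pachytene spermatocytes and 0.0807% ± 0.110 of elongated spermatids, with unthinned shares of 47.1%, 36.4% and 0.120% at median depths of 1869, 13122 and 2426 UMI per cell. Across the 17 classes the log2 levels of Neat1 and Malat1 had a Pearson r of 0.869, which describes points that share libraries and depth.

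The partner proteins followed courses of their own, and 6 of them had enough UMI to be read. Ewsr1, which encodes a FET-family RNA-binding protein, held a plateau in CPM from meiosis into round spermatids. It averaged 450.9 ± 28.5 CPM in undifferentiated spermatogonia, 420.3 ± 38.3 in the class named differentiated spermatogonia and 592.9 ± 92.5 in preleptotene spermatocytes. From leptotene to step 3 it held 710.5 ± 25.7, 669.3 ± 19.1, 706.8 ± 18.2 and 705.4 ± 25.8 CPM. The plateau did not hold on the other scales. Against CPM, UMI per cell moved the log2 ratio into late pachytene and early diplotene spermatocytes by 1.09. It moved that into the class named steps 1-2 by -0.91, and TMM factors moved the first ratio by 0.55. Steps 4-5 had 512.3 ± 12.8 CPM, steps 5-6 had 182.8 ± 12.3 and steps 6-7 had 8.41 ± 0.997. The last step was a log2(CPM + 1) difference of -4.29 ± 0.20 in 6 of 6 libraries, and 1.02% of genes moved down as far.

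Taf15, the FET-family relative of Ewsr1, peaked early. It had 226.8 ± 10.7 CPM in undifferentiated spermatogonia, 592.7 ± 116 in the class named differentiated spermatogonia and 491.3 ± 54.9 in preleptotene spermatocytes. The first step was up in 6 of 6 libraries, by 1.36 ± 0.25 on the log2(CPM + 1) scale, and 4.35% of genes moved up as far. Counted as UMI per cell the log2 ratio was 0.51, with 5 of 6 libraries up. Taf15 then held 238.3 ± 10.5 CPM in leptotene to early pachytene spermatocytes and 157.0 ± 5.28, 137.5 ± 9.51, 133.6 ± 13.7 and 111.9 ± 18.9 in the next 4 classes, with 51.1 ± 10.2 in steps 5-6 and 6.73 ± 0.960 in steps 6-7, its largest downward step at -2.74 ± 0.30 on the log2(CPM + 1) scale. With TMM factors the step into steps 7-8 was larger (log2 ratio -1.91, against -1.61 into steps 6-7).

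Tardbp, which encodes TDP-43, a splicing repressor and Neat1-binding protein, had a narrow peak in the class named preleptotene spermatocytes. It averaged 149.2 ± 15.5 CPM in undifferentiated spermatogonia, 200.4 ± 33.9 in the class named differentiated spermatogonia, 397.2 ± 61.0 in preleptotene and 247.2 ± 5.16 in leptotene to early pachytene spermatocytes. The step into preleptotene was up by 0.99 ± 0.27 on the log2(CPM + 1) scale and by 0.39 on the log2 scale in UMI per cell, in 6 of 6 libraries each. Levels of 105.9 ± 6.61, 67.2 ± 5.54, 39.5 ± 1.94 and 17.62 ± 0.693 CPM followed from late pachytene to steps 4-5. The largest downward step of Tardbp was into late pachytene and early diplotene spermatocytes, by -1.22 ± 0.08 on the log2(CPM + 1) scale in 6 of 6 libraries. Its place depended on the scale. In UMI per cell the largest drop was into steps 6-7 (log2 ratio -1.90), and with TMM factors it was into steps 4-5 (-0.76), ahead of that into late pachytene and early diplotene spermatocytes (-0.68).

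Hnrnpk, which encodes an RNA-binding protein that affects which Neat1 isoform is made, averaged 652.1 ± 54.1 CPM in undifferentiated spermatogonia, 884.2 ± 82.7 in preleptotene spermatocytes and 770.4 ± 24.4 in leptotene to early pachytene spermatocytes. It was 458.2 ± 22.8 CPM in the next class, 425.3 ± 18.1 in that named steps 1-2, 341.8 ± 16.1 in step 3, 175.9 ± 5.58 in steps 4-5 and 47.2 ± 3.07 in steps 5-6, and its largest downward step, -2.91 ± 0.19, led into steps 6-7. Rbm14, which encodes a coactivator needed to build paraspeckles, was low throughout, with a highest mean of 59.9 ± 12.97 CPM in preleptotene spermatocytes. It held 26.9 ± 0.892, 25.8 ± 1.82, 24.8 ± 1.58 and 18.9 ± 1.501 CPM from late pachytene to steps 4-5 and then 1.99 ± 0.397 in steps 5-6. That step was a log2(CPM + 1) difference of -2.74 ± 0.19 in 6 of 6 libraries, 1 class before the steepest step of Ewsr1, Taf15 and Hnrnpk. In GENCODE M21, 18.6% of the exonic bases of Rbm14 also belong to Gm21992, which was not among the measured genes; the part of this overlap in the low count was not tested.

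Smarca4, the SWI/SNF ATPase, had its largest downward step between step 3 and steps 4-5, before those of Ewsr1, Taf15, Rbm14 and Hnrnpk on each of the 3 scales. It averaged 432.5 ± 35.0 CPM in undifferentiated spermatogonia, 652.9 ± 107 in the class named differentiated spermatogonia, 410.1 ± 35.6 in preleptotene, 450.5 ± 14.6 in leptotene to early pachytene and 427.5 ± 7.57 in late pachytene and early diplotene spermatocytes. The class named steps 1-2 had 350.1 ± 25.9 CPM and step 3 had 197.1 ± 13.2. In steps 4-5 it stood at 22.1, 22.0 and 32.7 CPM in NONO deltaER and 25.1, 26.2 and 25.3 in NONO. The drop from step 3 was -2.91 ± 0.13 in log2(CPM + 1), and 0.395% of genes moved down as far. Cells of steps 4-5 held 0.463 UMI of Smarca4 and cells of step 3 held 2.90, and the log2 ratio was -2.96 in CPM, -2.65 in UMI per cell and -2.55 with TMM factors, with 6 of 6 libraries down on each. Its largest upward step came last, by 1.21 ± 0.49 on the log2(CPM + 1) scale into elongated spermatids, in 6 of 6 libraries but on 59 UMI. On the same scale the largest upward steps of Ewsr1 and Rbm14 were small, at 0.49 ± 0.33 and 0.39 ± 0.34 into preleptotene spermatocytes. That of Hnrnpk was 0.38 ± 0.65 into elongated spermatids, with 4 of 6 libraries up. The place of these upward steps depended on the scale. Against CPM, UMI per cell moved the log2 ratio into leptotene to early pachytene spermatocytes by 3.36. It moved that into preleptotene spermatocytes by -0.60 and that into elongated spermatids by -0.85.

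**Figure D3:**
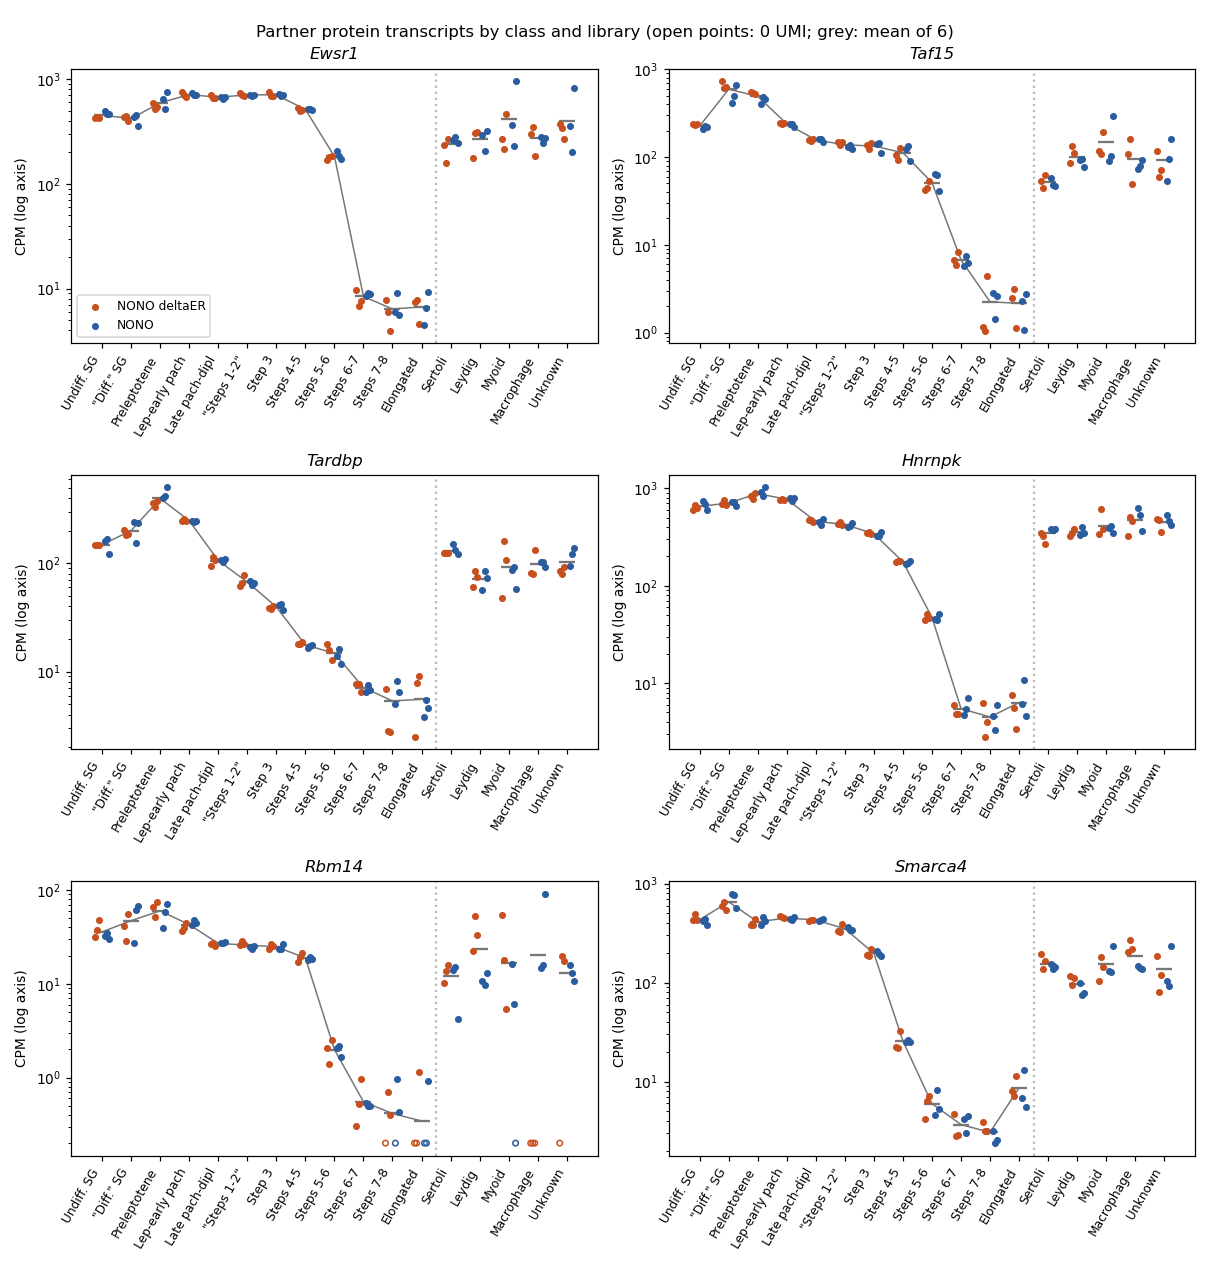
CPM (log axis) of 6 transcripts of partner proteins in 12 germ cell classes and 5 somatic classes. Each point is 1 library, NONO deltaER left of NONO, with the mean of 6 libraries in grey and open points for 0 UMI; Smarca4 is at 25.6 CPM in steps 4-5, where Ewsr1 still has 512.3 CPM.

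In which class a member was highest depended on the scale. Counted per cell, all 8 members moved their highest germ cell class, to leptotene to early pachytene spermatocytes for Malat1 (27.8 UMI per cell) and Tardbp (4.20), and to late pachytene and early diplotene spermatocytes for Neat1 (0.713), Ewsr1 (23.85), Taf15 (5.55), Rbm14 (0.956), Hnrnpk (16.3) and Smarca4 (15.2). Late pachytene and early diplotene cells were the deepest, with 34052 UMI per cell on average, against 1577 in preleptotene spermatocytes. With TMM factors over all classes 3 of 8 members kept their highest class.

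Matr3, which encodes the nuclear matrix protein matrin 3 and lies at chr18:35562138-35593835 (plus), gave 54 UMI in all 46495 cells and at most 0.175 ± 0.0875 CPM in a germ cell class, in step 3. It had 0 UMI in 8 classes, Sertoli and Leydig cells among them. In GENCODE M21, 17.3% of its exonic bases also belong to Gm28285, a gene that was not among those measured. The part of this overlap in the low count was not tested, and the count is not read as a level of the gene.

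In somatic classes the mean levels of the protein transcripts stayed below their highest germ cell means, though single somatic libraries reached above them, such as 1 of Ewsr1 in myoid cells. The highest somatic mean was 416.4 ± 280 CPM for Ewsr1 and 150.1 ± 77.4 for Taf15, both in myoid cells, 130.4 ± 10.9 for Tardbp in Sertoli cells, 469.3 ± 109 for Hnrnpk and 185.8 ± 52.3 for Smarca4 in macrophages, and 23.6 ± 16.9 for Rbm14 in Leydig cells. This is 0.253 to 0.586 of the highest germ cell mean for these 6, whereas for Malat1 and Neat1 the highest somatic mean was 14.6 and 22.9 times the highest germ cell mean.

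Among the 13418 genes at 20 CPM or more in a class, those whose log2 levels over the 17 classes were most like each member were named by Pearson r. They were Slc3a2 (r = 0.940), Os9 and Slc46a3 for Neat1, Pnrc1 (0.950), Slc3a2 and Myl12a for Malat1, Hdac1 (0.992), Ints13 and Prrc2a for Ewsr1, and Ralgapa1 (0.982), Dnajb11 and Morc2a for Taf15. Cdadc1 (0.985), Bud13 and Dars were nearest to Rbm14, Bptf (0.995), Tra2b and Ptpn23 to Hnrnpk, Nup54 (0.985), Chordc1 and Zswim8 to Tardbp, and Trappc8 (0.988) and Nap1l4 to Smarca4. Classes share libraries and depth, so these values describe likeness only.

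Related lists were set beside the members by the log2(CPM + 1) ratio of undifferentiated spermatogonia over steps 4-5. Of all 13418 genes, 63.6% were higher in undifferentiated spermatogonia, with a median of 0.79. Of the members 7 of 8 were higher, with a median of 1.07, and Ewsr1 was the exception. With TMM factors, which shift this ratio by 1.89, Neat1, Malat1, Taf15 and Rbm14 turned round and Hnrnpk stood at 0.01 (steps 4-5 over spermatogonia), while Tardbp and Smarca4 kept their direction; the counts below are on the CPM scale and would shift likewise. In this paragraph and the next, pairs of CPM give undifferentiated spermatogonia and then steps 4-5. Of other paraspeckle proteins 17 of 21 were higher (median 1.91), with Cirbp at 270.9 and 4.60 CPM and Ss18l1 at 53.9 and 0.289 CPM at one end and Fam98a (111.2 and 209.4 CPM) and Rbm7 (141.3 and 263.0 CPM) at the other. Of nuclear speckle proteins 13 of 14 were higher (median 2.77), among them Srrm1 (257.6 and 10.00 CPM) and Rnps1 (140.4 and 6.12 CPM), with Srsf5 (139.9 and 179.4 CPM) and Acin1 (259.1 and 242.8 CPM) at the other end.

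Of SWI/SNF subunits, the partners of SMARCA4 in its complex, 16 of 21 were higher (median 0.97). The log2 ratio was 4.04 for Smarca4 itself, 3.94 for Smarcd1 (37.0 and 1.47 CPM) and 3.38 for Smarcd3 (11.1 and 0.0223 CPM), the largest of the list. Dpf3 (37.5 and 163.7 CPM) and Smarca2, the alternative ATPase (188.2 and 513.7 CPM), were lower in undifferentiated spermatogonia than in steps 4-5. Smarca2 was highest in late pachytene and early diplotene spermatocytes, at 1026 CPM. Of other nuclear retained long non-coding RNAs 5 of 5 were higher (median 2.23), from Firre (34.1 and 0.0548 CPM) and Meg3 (6.40 and 0.145 CPM) to Tug1 (84.8 and 19.3 CPM) and Gas5 (28.6 and 14.7 CPM).

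NONO deltaER was then compared with NONO within each class. No member passed the threshold of an adjusted p of 0.05 in any class by edgeR's quasi-likelihood test: 0 of 116 member and class pairs tested, with a lowest adjusted p of 0.278 and 2 pairs at an unadjusted p under 0.05 (1.72%, against 4.78% over all genes). DESeq2 called 0 pairs, with 1 at an unadjusted p under 0.05. Over all genes the same rule called 0.0271% of genes in undifferentiated spermatogonia, 0.327% in preleptotene spermatocytes and 0% in each other class and over all cells. The remaining 37 of 153 pairs, with all of Matr3, had too few UMI to be tested.

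Over all cells, log2 fold changes of NONO deltaER over NONO were -0.20 ± 0.17 for Malat1 (standard error, edgeR adjusted p = 0.881), -0.07 ± 0.11 for Neat1 (0.937), -0.04 ± 0.06 for Ewsr1 (0.943), -0.01 ± 0.09 for Taf15 (0.996) and 0.01 ± 0.08 for Tardbp (0.996). Those of Hnrnpk, Rbm14 and Smarca4 were 0.01 ± 0.09 (0.985), 0.00 ± 0.09 (0.998) and 0.10 ± 0.08 (0.866). Of the 116 pairs by class, 61 were above 0 and 55 below, and 109 were smaller than 0.5 in size, within a range of -0.87 to 0.73. The 95% interval lay within 1 on either side of 0 in 79 of 82 germ cell pairs and within 0.5 in 61 of all 116. A p that misses the threshold does not show that the genotypes are equal.

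**Figure D4:**
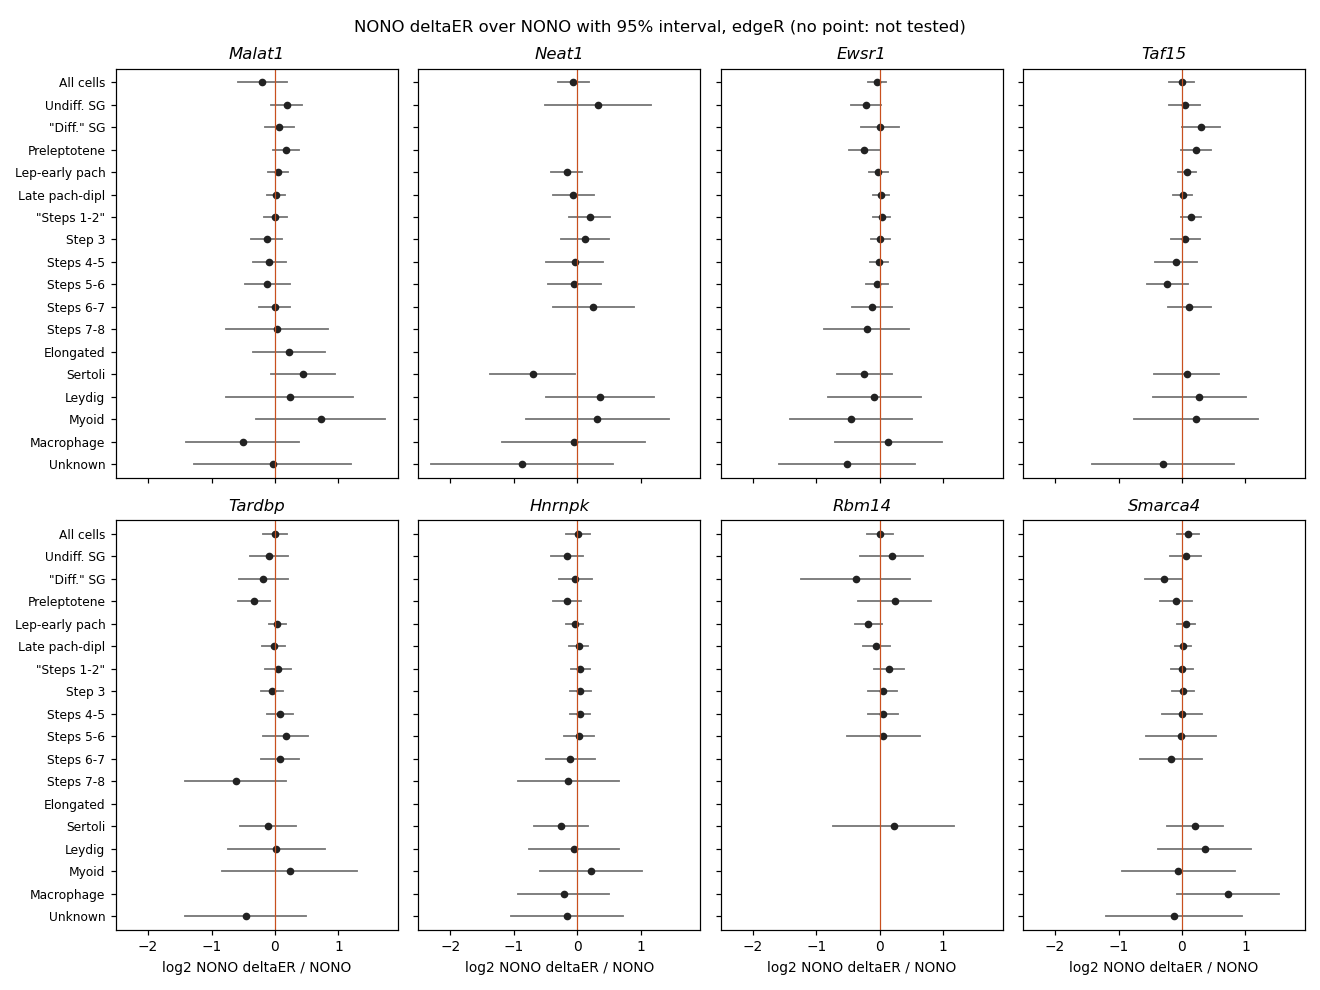
Log2 fold change of NONO deltaER over NONO for 8 members over all cells and in each class, with the 95% interval from edgeR; classes without a point were not tested. For most members the intervals are narrower in meiotic cells than in somatic classes, where the lowest (-0.87) and highest (0.73) values are.

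The pair with the lowest p was Tardbp in preleptotene spermatocytes. Its levels were 358.0, 329.2 and 374.0 CPM in NONO deltaER and 397.5, 420.8 and 503.7 in NONO, so all 3 NONO deltaER libraries lay below all 3 of NONO. In the same class the summed markers of 3 other cell types were also lower in NONO deltaER without overlap. Those of late spermatocytes were 882.1 to 921.0 CPM in NONO deltaER and 1142.6 to 1263.8 in NONO. Those of undifferentiated spermatogonia were 6.39 to 10.61 and 17.7 to 29.1, and those of macrophages 5.47 to 7.96 and 8.83 to 9.71. The sums of undifferentiated spermatogonia and macrophages rest on few UMI, since a library held 226306 to 452846 UMI in this class. Only marker lists without overlap are named here. Over all genes and classes, 4.33% of gene and class pairs were lower in NONO deltaER without overlap. The part of the named markers in the Tardbp level was not tested. The log2 fold change was -0.33 ± 0.13 (95% interval -0.58 to -0.07, edgeR unadjusted p = 0.0123, adjusted p = 0.278). In leptotene to early pachytene spermatocytes Tardbp had 248.0, 254.4 and 248.0 CPM in NONO deltaER and 247.8, 238.3 and 246.5 in NONO, a log2 fold change of 0.04. The difference between the 2 effects was 0.38 ± 0.14 (limma adjusted p = 0.398).

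Neat1 in Sertoli cells was the other pair at an unadjusted p under 0.05. It had 22.8, 21.4 and 34.2 CPM in NONO deltaER and 40.8, 65.2 and 24.0 in NONO, and the groups overlapped. Its log2 fold change was -0.70 ± 0.33 (95% interval -1.37 to -0.04, edgeR adjusted p = 0.960), and the 170 UMI of Neat1 in Sertoli cells limit it. Summed Leydig markers in this class were 20.1 to 28.7 CPM in NONO deltaER and 31.1 to 41.7 in NONO, lower without overlap. Those of early spermatocytes were also lower without overlap (143.4 to 177.7 CPM in NONO deltaER and 197.5 to 253.2 in NONO). Fibroblast-like and lymphocyte markers were higher without overlap, but summed to only 9.17 and 0.865 CPM in this class. Of the 2 lymphocyte markers 1 was at 0, so that sum is near the floor. Here too only lists without overlap are named. Over all genes and classes, 5.46% of gene and class pairs were higher in NONO deltaER without overlap and 4.33% were lower. Leydig cells have the highest Neat1 level, and the part of the source of the named markers in the Neat1 difference was not tested. The same libraries also part by mitochondrial percent there, at 34.2 to 65.2 CPM in TA, TB and TF and 21.4 to 24.0 in TC, TD and TE. Within TA, TB and TF, where TF alone is NONO deltaER, the log2 difference of NONO deltaER and NONO was -0.58. Within TC, TD and TE, where TC alone is NONO, it was -0.12. Each value rests on 1 library of a genotype and has no measure of spread.

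For the other members, the class with the lowest p was as follows, all by edgeR. In preleptotene spermatocytes Ewsr1 had 593.0, 514.5 and 535.9 CPM in NONO deltaER and 644.8, 517.9 and 751.2 in NONO (log2 fold change -0.24 ± 0.12, adjusted p = 0.430), and Hnrnpk had 841.7, 786.2 and 894.0 in NONO deltaER and 916.4, 841.6 and 1025 in NONO (-0.17 ± 0.11, adjusted p = 0.572). In the class named differentiated spermatogonia Taf15 had 734.5, 617.9 and 627.2 CPM in NONO deltaER and 417.1, 494.2 and 665.2 in NONO (0.30 ± 0.15, adjusted p = 0.781), and Smarca4 had 593.7, 658.1 and 537.6 in NONO deltaER and 792.9, 768.7 and 566.5 in NONO (-0.29 ± 0.14, adjusted p = 0.781). Rbm14 in leptotene to early pachytene spermatocytes had a log2 fold change of -0.18 ± 0.10 (adjusted p = 0.996) and Malat1 in Sertoli cells one of 0.45 ± 0.25 (adjusted p = 0.960), where library TC was the lowest. The genotypes overlapped in each of these 6 pairs.

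Undifferentiated spermatogonia had 1837, 2028 and 1836 CPM of Malat1 in NONO deltaER and 1497, 1614 and 1675 in NONO, without overlap (log2 fold change 0.19 ± 0.11, edgeR adjusted p = 0.442). The summed markers of undifferentiated spermatogonia were likewise higher in this class without overlap, at 648.2 to 950.3 CPM in NONO deltaER and 586.2 to 608.7 in NONO, and the part of the make-up of the class was not tested. At 1000 UMI per cell 73.9% ± 0.611 of NONO deltaER and 69.5% ± 1.55 of NONO cells of this class had a Malat1 UMI, and 84.7% ± 2.52 and 78.7% ± 2.37 in the class named differentiated spermatogonia (SD, n = 3 each; two-sided exact permutation test, p = 0.1, as low as 3 libraries against 3 can go, and 1 after adjustment over members and classes). Taf15 did not overlap between the genotypes in undifferentiated spermatogonia, in preleptotene (546.6, 533.7 and 517.3 CPM in NONO deltaER and 397.5, 488.7 and 464.0 in NONO) and in leptotene to early pachytene spermatocytes, each time higher in NONO deltaER. In leptotene to early pachytene spermatocytes the summed early spermatocyte markers were lower without overlap, at 1369.8 to 1483.2 CPM in NONO deltaER and 1523.5 to 1555.1 in NONO. Over all 116 pairs, 8 did not overlap and were higher in NONO deltaER (6.90%, against 5.46% over all genes and classes) and 4 did not overlap and were lower (3.45%, against 4.33%), shares near those of all genes.

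Whether the genotype effect changed from 1 germ cell class to the next was tested with limma over 11 neighbouring pairs. None of 73 tests of members passed an adjusted p of 0.05, with a lowest of 0.398, and over all genes 0.00108% of tests passed. At an unadjusted p under 0.05 there were 5 tests of members (6.85%, against 4.97% over all genes). One of the 5 was the step of Malat1 into step 3, by -0.16 ± 0.05 (unadjusted p = 0.0075, adjusted p = 0.999). In the other lists no gene passed the threshold in any class by edgeR: 0 of 279 pairs of other paraspeckle proteins, 0 of 270 of SWI/SNF subunits, 0 of 209 of nuclear speckle proteins and 0 of 44 of the long non-coding RNAs. Unadjusted p-values under 0.05 by edgeR numbered 4, 9, 4 and 1 in these lists, in each a smaller share than the 4.78% over all genes. The lowest adjusted ones were 0.145, 0.105, 0.493 and 0.163.

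Within round spermatids, Malat1 and Taf15 parted by the mitochondrial percent of the libraries in several classes, and Neat1 in steps 5-6, while it overlapped in step 3 and steps 4-5. In steps 4-5 Malat1 stood at 1297 to 1416 CPM in TA, TB and TF and at 1020.2 to 1088 in TC, TD and TE, and in steps 5-6 at 1154 to 1296 and 804.3 to 923.7. Taf15 had 123.4 to 133.7 CPM in TA, TB and TF in steps 4-5 and 89.3 to 105.0 in TC, TD and TE. Over the 116 pairs the sets did not overlap in 22 with TA, TB and TF higher (19.0%, against 14.2% over all genes) and in 5 with them lower (4.31%, against 10.2%). The part of mitochondrial percent, or of what it stands for, in these levels was not tested.

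**Figure D5:**
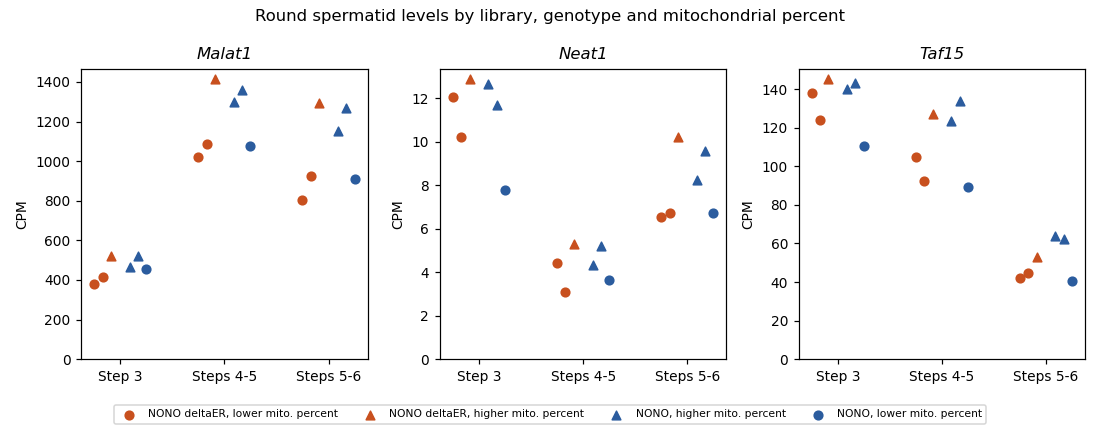
CPM of Malat1, Neat1 and Taf15 in round spermatids of step 3, steps 4-5 and steps 5-6, by library. NONO deltaER is in orange and left of NONO in blue, and triangles are the libraries TA, TB and TF with a higher mitochondrial percent; in steps 4-5 Malat1 is at 1297 to 1416 CPM in the triangles and 1020.2 to 1088 CPM in the circles.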

How the data were processed

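Per the labels, testes were digested to single cells and libraries made with the 3′ v2 protocol of 10x Genomics. Cell Ranger 2.1.1 and the build mm10 are named, per the submitters' processing notes; no source at hand states the annotation version, the cell filters or how doublets were treated. The deposited matrix holds raw UMI counts, and the deposited cell table gives each cell's library, group, class and mitochondrial percent. Libraries were grouped by that table's group column; it does not tie them to numbered samples. No cell was left out here; the lowest total was 500 UMI. No doublet caller was run, and an alternative left out the 5% of cells with most UMI per library and class. Counts were summed per library and class, and all depth figures and intervals cover counting and library spread only.

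The genotypes were compared within each class with edgeR 4.0.16 in R 4.3.3 (TMM, filterByExpr, robust quasi-likelihood test, Benjamini-Hochberg adjustment over all genes of a class, threshold 0.05), and DESeq2 1.42.0 was an alternative. Neighbouring germ cell classes were compared by limma 3.58.1 on log2 ratios of CPM within a library (prior count 2). Both were tested on simulated data. Steps use log2(CPM + 1); shares of cells were expected values after thinning to 1000 UMI, which left out 1009 of 21518 NONO deltaER and 856 of 24977 NONO cells. The members and lists were chosen with earlier results of these data known. All 9 members were named, each with its class of lowest p and its largest steps, with the 3 genes most like each (1 gene is not reported here) and, from each further list, the genes past the threshold and the 2 largest and 2 smallest ratios. Other alternatives were library totals, no filter on low counts, a minimum of 1000 UMI a cell, the same number of cells from each library, the mitochondrial set as covariate, other scales and each library left out.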

Additional observations from a re-analysis of the deposited data

Results flagged for a closer look

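Tardbp stood lower in every NONO deltaER library than in any of NONO in some classes, and higher in others. Its log2 fold change of NONO deltaER over NONO was -0.33 in preleptotene spermatocytes and -0.46 in the class named Unknown, where all 3 NONO deltaER libraries lay below all 3 of NONO, and 0.0361 in leptotene to early pachytene spermatocytes and 0.0851 in round spermatids of steps 4-5, where all 3 lay above. By library, steps 4-5 had 18.1, 17.8 and 18.6 CPM in NONO deltaER and 16.7, 17.1 and 17.4 in NONO, and the class named Unknown had 84.1, 79.6 and 92.8 CPM in NONO deltaER and 94.9, 121.1 and 139.9 in NONO. None of the 4 passed edgeR's threshold. The 95% interval was -0.58 to -0.07 in preleptotene spermatocytes. It included 0 in leptotene to early pachytene spermatocytes (-0.10 to 0.17), steps 4-5 (-0.12 to 0.29) and the class named Unknown (-1.415 to 0.49). Such separation is not rare in these data. Over all genes and classes, 5.46% of pairs were higher in NONO deltaER without overlap and 4.33% were lower. In preleptotene spermatocytes the summed markers of late spermatocytes (882.1 to 921.0 CPM in NONO deltaER and 1142.6 to 1263.8 in NONO) were also lower in NONO deltaER without overlap. So were those of undifferentiated spermatogonia (6.39 to 10.61 and 17.7 to 29.1), on few UMI, with 226306 to 452846 UMI per library in this class. In leptotene to early pachytene spermatocytes those of early spermatocytes were lower without overlap (1369.8 to 1483.2 and 1523.5 to 1555.1). The part of these markers was not tested. The difference between preleptotene and leptotene to early pachytene spermatocytes was tested and had a limma adjusted p of 0.398; the other differences between classes were not tested.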

How the results depend on the processing

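No paired analysis was possible because the deposited cell table ties no library to a replicate number. The genotype comparison called 0 member and class pairs under every alternative run, with each library left out included, with 1 to 8 pairs at an unadjusted p under 0.05. Of 208 alternative values of the members' log2 fold changes, 26 turned direction, all of them over all cells, where they lay near 0. With equal numbers of cells Ewsr1 was 0.00 and Taf15 0.03; Taf15 was 0.01 with library totals, 0.00 without a filter and 0.05 with the mitochondrial set as covariate. With that covariate Rbm14 was 0.00, Hnrnpk -0.04 and Tardbp -0.05, and with DESeq2 Rbm14 and Tardbp were both 0.00. With 1 library left out the values ran from -0.14 to 0.00 for Neat1, from -0.07 to 0.06 for Taf15, from -0.04 to 0.06 for Rbm14, from -0.03 to 0.10 for Hnrnpk and from -0.04 to 0.08 for Tardbp. The log2 ratio between the germ cell classes that were highest and lowest in CPM moved with the scale. The same classes were kept on every scale, so the values below are not the full range of a member on the other scales. In UMI per cell it was 9.60 for Neat1, 6.49 for Malat1, 8.58 for Ewsr1, 6.88 for Rbm14, 6.02 for Hnrnpk, 4.60 for Tardbp and 6.73 for Smarca4. With TMM factors over all classes it was 5.13, 4.77, 4.08, 4.45, 4.28, 2.89 and 4.30 for the same genes and 4.75 for Taf15. Neat1 and Rbm14 have 2 UMI in their lowest class and also moved otherwise: 7.54 and 8.08 without the cells with most UMI, 7.92 and 8.01 as a mean over cells, and 7.45 to 8.53 and 7.15 to 8.27 with 1 library left out. Wide intervals in somatic classes limit the genotype comparison there.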
